A study of Mus musculus with 4 samples.

Results

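Red blood cell genes and the hormone that drives their expression were examined in whole mouse kidney after an injection of vancomycin. The set was chosen by name: the 9 listed genes were Hba-a1, Alas2, Klf1, Ahsp, Epb42, Gata1, Tfrc, Epor and Epo, and every probe whose gene name in the array files equalled a listed name was taken. Of the 9 names, 8 were found, with 13 probes, among 37074 gene names. Epb42 matched no gene name and was dropped by the rule. The 8 genes found comprised 5 that were well above background on all 4 arrays (Hba-a1, Alas2, Klf1, Tfrc and Epor) and 3 that were not well above background on any array (Ahsp, Gata1 and Epo). In the whole series 24638 genes were measured, that is, well above background on 1 array or more.

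Total RNA of kidney from ICR mice, an outbred strain, was hybridized to 1-colour Agilent arrays. There were 4 groups of 1 array each: vancomycin injected at zeitgeber time (ZT) 2, saline injected at ZT2, vancomycin injected at ZT14 and saline injected at ZT14. ZT counts hours from lights on, and every kidney was taken 1 day after the injection. Vancomycin is a glycopeptide antibiotic that can injure the kidney, and the study asked how gene expression in kidney differed between vancomycin and saline. Dose, age and sex of the mice are not given in the sources used here, nor the number of mice behind each sample. With 1 array a group a difference at a single time has no replicate check and no test, so it is given as a size. The ZT2 pair shared 1 slide and the ZT14 pair a second, which means that slide and time cannot be told apart. On each slide vancomycin had position 1.2 and saline position 1.1, so treatment cannot be told apart from position. Between 60.6% and 64.7% of spots were well above background, 0 spots were saturated, and arrays correlated with a Pearson r of 0.965 to 0.986 across genes. As a check of the tissue, 10 of 10 kidney markers were well above background on all 4 arrays, with a median difference of 0.10 at ZT2 and 0.08 at ZT14 (log2, vancomycin minus saline).

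Red cells arise from progenitors that depend on erythropoietin, which in the adult is made mainly by interstitial fibroblasts of the kidney when oxygen is short and hypoxia-inducible factors are stable. Erythropoietin binds its receptor EPOR on erythroid progenitors and signals through JAK2 and STAT5, and the transcription factors GATA1 and KLF1 switch on the globin genes, the haem enzyme ALAS2 and the globin chaperone AHSP. Reticulocytes, the young red cells in blood, have lost the nucleus but still hold globin and ALAS2 mRNA, so blood inside an organ adds these transcripts to its RNA. Fewer cells of a type and less RNA per cell cannot be told apart in such bulk samples.

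The 5 measured genes did not share a pattern. At ZT2 the oxygen carrier gene Hba-a1 and the haem enzyme gene Alas2 were more than 4-fold lower with vancomycin, Klf1 was 6.87-fold higher, Tfrc was 1.96-fold lower and Epor was almost level. At ZT14 all 5 were under 2-fold in either direction. Of the 5, then, 1 was higher and 2 were lower by 2-fold or more at ZT2, where 1.98% of 22929 genes were higher and 3.89% were lower by that size. At ZT14 the counts were 0 higher and 0 lower, against 1.62% higher and 2.88% lower of 23705 genes. The median difference of the 5 was -0.97 at ZT2 and 0.19 at ZT14 (log2), and that of all genes was -0.003 and 0.005.

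**Figure D1:**
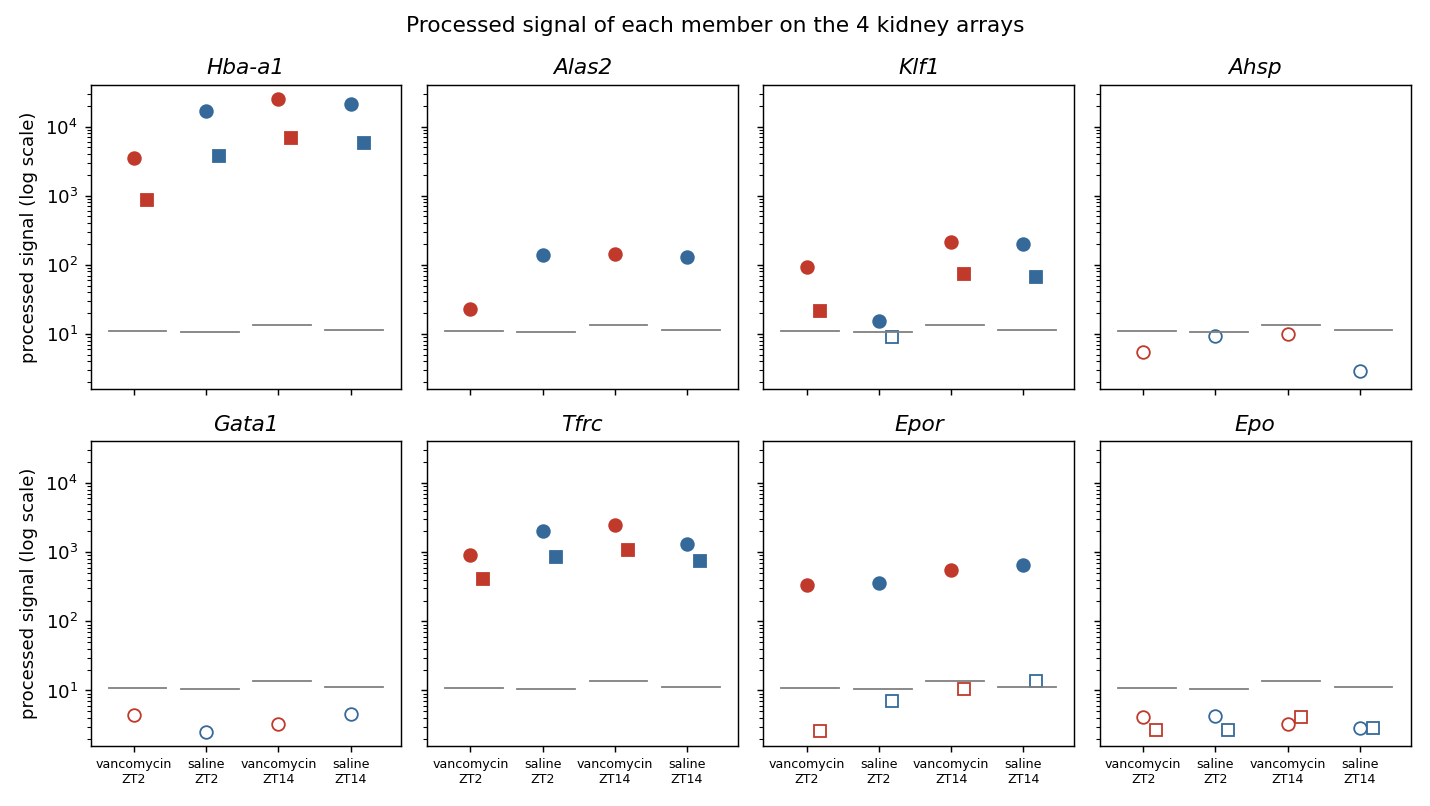
Processed signal of the 8 genes found (log axis, arbitrary fluorescence units) on the 4 arrays, vancomycin in red and saline in blue, 1 array per group. Circles and squares are different probes of a gene, open symbols are not well above background, and grey lines mark the lowest signal well above background on each array (10.5 to 13.5). Hba-a1 and Alas2 are lowest on the vancomycin ZT2 array, Klf1 is lowest on the saline ZT2 array, and Ahsp, Gata1 and Epo have open symbols only.

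Hba-a1 encodes an adult alpha globin chain of haemoglobin. Its brighter probe (mm9 chr11:32184427-32184486, plus strand) gave a processed signal of 3515 in vancomycin kidney and 16650 in saline kidney at ZT2. At ZT14 the signals were 25200 in vancomycin kidney and 21200 in saline kidney. The vancomycin ZT2 array was thus the low one, and the other 3 lay close together. After centring on the 75th percentile of each array the difference was -2.09 at ZT2 (log2, 4.26-fold lower) and 0.31 at ZT14 (1.24-fold higher). The SD of log2 signal among the 10 spots of this probe within an array was 0.0291 to 0.0485, a technical error that says nothing of mice. The other probe, also with 10 spots (mm9 chr11:32183955-32184014, plus strand), gave 866.2 in vancomycin kidney and 3781 in saline kidney at ZT2, a difference of -1.97. It gave 6828 in vancomycin kidney and 5867 in saline kidney at ZT14, a difference of 0.28. This second probe is shown because it gave the same pattern at another place of the transcript. In it, at least 1 of the 3 forward reading frames held no stop codon. Exon and UTR annotation in mm9 was not used here.
Hba-a1 probe: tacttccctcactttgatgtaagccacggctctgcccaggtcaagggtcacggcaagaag

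Of 10 listed globin and globin chaperone genes 5 were measured, Hba-a1 included, all on all 4 arrays. Each was at least 2-fold lower with vancomycin at ZT2, their median being -2.06, and 0 were past 2-fold at ZT14, where the median was 0.27. Hba-a2, the second adult alpha globin gene, differed by -2.09 at ZT2 and 0.32 at ZT14, but its probe shares a run of 59 of its 60 bases with that of Hba-a1, so the alpha genes cannot be told apart. The 5 genes therefore hold 4 separate measurements at most. Among the adult beta globin genes, Hbb-bt differed by -1.85 and 0.27, Hbb-b1 by -1.88 and 0.02, and Hbb-b2 by -2.06 and -0.31 (log2, ZT2 then ZT14). These beta genes are also close copies of each other. The embryonic globin genes Hba-x, Hbb-bh1 and Hbb-y were not well above background on any array.

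By root mean square distance between patterns over the 4 arrays, each gene less its own mean, the nearest of 15765 genes with an ordinary symbol to Hba-a1 was Hba-a2, at 0.004. Next came Hbb-bt at 0.121, Hbb-b1 at 0.158, Alas2 at 0.208 and Spag5, a mitotic spindle gene, at 0.239 (log2 units). These likenesses are over 4 arrays only. Hbb-b2 was not among them: it was 1.96 higher at ZT14 than at ZT2 in saline kidneys, where Hba-a1 differed by 0.04 (-0.08 in the authors' deposited table). With normexp background correction the ZT2 sizes of Alas2 and Hba-a1 parted, at -1.08 and -2.08.

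Alas2 encodes the erythroid form of the first enzyme of haem synthesis. Its single probe (mm9 chrX:147004993-147005052, plus strand) gave a signal of 22.77 in vancomycin kidney and 139.2 in saline kidney at ZT2. At ZT14 the signals were 143.4 in vancomycin kidney and 130.5 in saline kidney. As with Hba-a1, the vancomycin ZT2 array stood below the other 3, by -2.45 against saline (log2, 5.46-fold lower), and the difference at ZT14 was 0.19. The signal of 22.77 is close to 11, the dimmest well above background there, and with normexp background correction the ZT2 difference was -1.08.

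The enzyme list shows how far Alas2 stood from the rest of its pathway. Of 12 haem synthesis genes, all measured, Alas2 was the 1 past 2-fold at ZT2, 0 were past it at ZT14, and the medians were 0.00 and 0.06. Most of the others work in every cell: Alad, which makes porphobilinogen, differed by 0.34 at ZT2 and -0.18 at ZT14. Fech, which inserts the iron, differed by -0.31 and 0.23, and the mitochondrial carrier gene Abcb10 by -0.30 and 0.32. Ppox, a late enzyme of the pathway, differed by -0.11 and -0.31, and the glycine carrier gene Slc25a38 by 0.13 and 0.30.

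**Figure D2:**
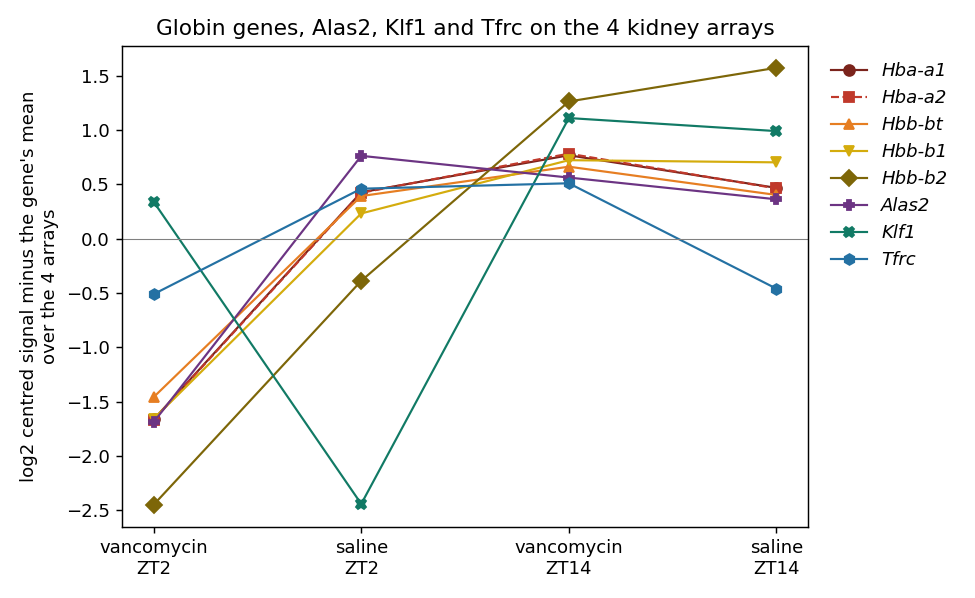
Log2 centred signal of 5 globin genes, Alas2, Klf1 and Tfrc on the 4 arrays, each gene less its own mean over the arrays. Lines join arrays only to guide the eye, with vancomycin left of saline at each time. The globin genes and Alas2 are lowest on the vancomycin ZT2 array, Klf1 on the saline ZT2 array, and Tfrc is low on the vancomycin ZT2 and saline ZT14 arrays.

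Klf1 encodes an erythroid zinc finger activator that binds CACCC boxes of the beta globin and other red cell genes. Its brighter probe (mm9 chr8:87428881-87428940, plus strand) gave a signal of 93.44 in vancomycin kidney and 15.16 in saline kidney at ZT2. At ZT14 it gave 212.5 in vancomycin kidney and 202.8 in saline kidney. Here the saline ZT2 array was the low one, so that the difference was 2.78 at ZT2 (log2, 6.87-fold higher) and 0.13 at ZT14. The direction at ZT2 was opposite to that of Hba-a1 and Alas2. The saline ZT2 signal of 15.16 is from 1 spot and is close to 10.5, the dimmest well above background there. With normexp background correction the ZT2 difference was 1.21, so its size is uncertain.

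The second Klf1 probe (mm9 chr8:87427100-87427159, plus strand) gave 21.38 in vancomycin kidney and 9.005, not well above background, in saline kidney at ZT2, which makes vancomycin at least 2.28-fold higher. The lower bound was taken against the lowest signal well above background on the saline array. It gave 73.69 in vancomycin kidney and 66.02 in saline kidney at ZT14, a difference of 0.22. Both probes put the saline ZT2 array lowest. The second probe is printed because it carries the bound.
Klf1 probe: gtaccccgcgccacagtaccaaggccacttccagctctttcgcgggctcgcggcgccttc

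The genes beside Klf1 on the chromosome were set beside it. Gcdh, the nearest measured gene on one side, differed by 0.31 at ZT2 and -0.02 at ZT14. Dnase2a, which encodes a lysosomal nuclease and is the nearest on the other side, differed by -0.17 and 0.18. Dnase2a was 2.49 higher at ZT14 than at ZT2 in saline kidneys, where Klf1 was 3.43 higher. In vancomycin kidneys the 2 genes parted. The centred log2 signal of Dnase2a was 2.39 at ZT2 and 5.23 at ZT14, while Klf1 was only 0.78 higher at ZT14.

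GATA1, the master regulator of the erythroid lineage, works with KLF1. The Gata1 probe (mm9 chrX:7536392-7536451, minus strand) gave 4.438 in vancomycin kidney and 2.514 in saline kidney at ZT2, and 3.24 in vancomycin kidney and 4.553 in saline kidney at ZT14. None was well above background, so no fold is given. Of 12 erythroid transcription regulators 9 were measured, Gata1, Nfe2 and Gfi1b being the ones that were not. Klf1 was the 1 of 8 past 2-fold at ZT2, and 0 of 9 were past it at ZT14. The lymphoid and erythroid factor gene Ikzf1 differed by -0.79 at ZT2 and -0.46 at ZT14, Lmo2 by -0.46 and -0.01, and Ldb1, whose protein bridges GATA1 complexes, by -0.16 and -0.22. Lyl1 differed by -0.04 and -0.42, and the progenitor factor gene Gata2 by 0.11 and 0.26.

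Promoter sequences of Hba-a1 and Alas2, which were low on the same array, and of Klf1, which was not, are shown from RefSeq (GRCm38.p6, plus strand for all 3), covering the 250 bases before the annotated start. Capitals mark 2 kinds of motif, searched on both strands: the GATA motif, given as AGATAA or AGATAG or TGATAA or TGATAG, and the CACCC motif, given as CCNCNCCC. No GATA match overlapped a CACCC match.
Hba-a1, chr11:32283422-32283671: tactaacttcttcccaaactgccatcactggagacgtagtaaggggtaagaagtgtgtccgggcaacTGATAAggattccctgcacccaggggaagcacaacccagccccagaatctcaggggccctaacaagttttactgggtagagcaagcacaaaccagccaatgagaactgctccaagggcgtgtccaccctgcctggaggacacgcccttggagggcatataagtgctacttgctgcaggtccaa
Alas2, chrX:150547167-150547416: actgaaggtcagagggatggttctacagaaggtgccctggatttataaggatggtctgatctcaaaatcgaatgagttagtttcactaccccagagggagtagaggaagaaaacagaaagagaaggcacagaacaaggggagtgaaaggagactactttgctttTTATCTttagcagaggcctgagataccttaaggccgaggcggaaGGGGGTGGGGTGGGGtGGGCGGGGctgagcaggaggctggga
Klf1, chr8:84901732-84901981: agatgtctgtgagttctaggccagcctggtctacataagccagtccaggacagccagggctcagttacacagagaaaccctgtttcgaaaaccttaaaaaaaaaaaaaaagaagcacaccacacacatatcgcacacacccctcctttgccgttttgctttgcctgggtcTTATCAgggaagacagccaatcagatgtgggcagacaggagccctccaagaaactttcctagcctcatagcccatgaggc

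Each of these promoters held 1 GATA match, which began 183 bases before the start in Hba-a1, 86 in Alas2 and 80 in Klf1. Alas2 held 4 CACCC matches that began between 42 and 26 bases before the start, the first 3 of them overlapping, and Hba-a1 and Klf1 held 0 in these letters. A match here means the pattern CCNCNCCC only. The plain letters CACCC were not counted, and they do occur unmarked in the Hba-a1 and Klf1 sequences shown. The last Alas2 match does not hold them on either strand. Of 9 listed genes, 8 had a promoter in the table, and Ahsp had no entry. Over windows that reach 50 bases past the start, 6 of the 8 held a GATA match, 5 a CACCC match and 3, namely Hba-a1, Tfrc and Epo, a hypoxia motif (ACGTG or GCGTG on either strand). Of all 32851 such windows 29.8% held a GATA match, 49.5% a CACCC match and 43.8% a hypoxia motif. A match is a description of letters, not a bound site.

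AHSP binds free alpha globin and keeps it soluble. The Ahsp probe gave 5.537 in vancomycin kidney and 9.23 in saline kidney at ZT2, and 9.983 in vancomycin kidney and 2.957 in saline kidney at ZT14. None was well above background. The array files give no coordinates for it, so the probe itself identifies what was measured.
Ahsp probe: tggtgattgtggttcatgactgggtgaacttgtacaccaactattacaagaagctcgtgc

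Epb42 encodes a band 3 binding protein of the red cell membrane. It was dropped by name, but the array files carry it under the older symbol Epb4.2, matched by accession. Its centred log2 signal was -5.77, not well above background, in vancomycin kidney and -4.44 in saline kidney at ZT2, at least 1.04 lower on the log2 scale. At ZT14 it was -4.85 in vancomycin kidney and -3.98 in saline kidney, a difference of -0.87. Of 17 membrane and skeleton genes 13 were measured, and 4, Rhag and Kel among them, were not well above background on any array. Epb42 was the 1 of 12 past 2-fold at ZT2, and 0 of 12 were past it at ZT14. Add2, a skeleton gene, differed by -0.77 at ZT2 and -0.58 at ZT14, and Gypc, a glycophorin gene, by -0.63 and -0.19. Tspan33 differed by -0.07 and 0.24. Slc4a1, the band 3 anion exchanger that kidney intercalated cells also make, differed by 0.31 and 0.34.

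A last erythroid list held genes that reticulocytes keep and others used as red cell markers, of which 13 of 17 were measured. At ZT2, 1 of 12 was higher and 1 lower by 2-fold, and at ZT14, 1 of 13 was higher and 1 lower. The complement regulator gene Cd59b differed by 1.32 at ZT2 and -0.81 at ZT14, and Isg20, an exonuclease gene that interferon induces, by 0.79 and -1.23. Over the 5 erythroid lists together 51 of 67 genes were measured. Of 48 compared at ZT2, 2 were higher and 8 lower by 2-fold, with a median of -0.06, and 5 of the 8 were globin genes, the alpha pair counted as 2. Of 50 compared at ZT14, 1 was higher and 1 lower, with a median of -0.05. Of the 48 compared at both times, 0 were past 2-fold at both. With so few past it at ZT14 this count says little of these genes. The share of all genes past 2-fold at both times is not given here.

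**Figure D3:**
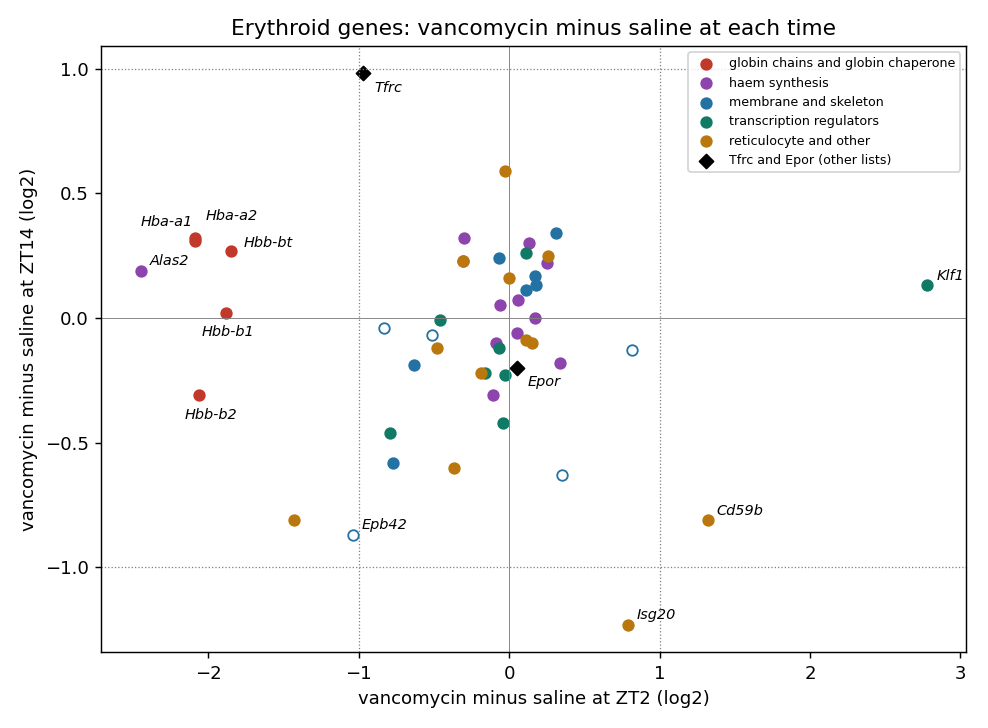
Vancomycin minus saline at ZT2 (x axis) and ZT14 (y axis), log2, for 48 genes of the 5 erythroid lists and for Tfrc and Epor. Open symbols are bounds (dim on 1 array), and dotted lines mark 2-fold. The globin genes and Alas2 lie left of -1 at ZT2 and inside the 2-fold lines at ZT14, and Klf1 lies at 2.78 and 0.13.

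Tfrc encodes transferrin receptor 1, through which erythroblasts and most dividing cells take up iron. Its brighter probe (mm9 chr16:32632255-32632314, plus strand) gave 911.2 in vancomycin kidney and 1994 in saline kidney at ZT2. At ZT14 it gave 2453 in vancomycin kidney and 1297 in saline kidney. The signs were opposite at the 2 times and the sizes alike: -0.97 at ZT2 (log2, 1.96-fold lower) and 0.98 at ZT14 (1.97-fold higher). The ZT14 difference ranged from 0.59 with the other probe to 1.005, just past 2-fold, over the alternatives. That probe (mm9 chr16:32620470-32620529, plus strand) gave 414.2 in vancomycin kidney and 841.9 in saline kidney at ZT2, and 1089 in vancomycin kidney and 753 in saline kidney at ZT14.

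Of 17 iron genes 13 were measured, and 0 of 12 were past 2-fold at ZT2. At ZT14, Tfr2, the second transferrin receptor gene, was at least 1.04 higher on the log2 scale and was the 1 of 13 past 2-fold. Its signal of 22.29 in vancomycin kidney is close to 13.5, the dimmest well above background there. In saline kidney it was 10.19, not well above background. The haem-degrading enzyme gene Hmox1 differed by 0.35 at ZT2, the iron exporter gene Slc40a1 by -0.25 and the iron importer gene Slc11a2 by -0.20. At ZT14, Hfe, which binds transferrin receptor 1, differed by -0.53. The iron regulatory proteins, which stabilise Tfrc mRNA when iron is short, are encoded by Aco1 and Ireb2. Aco1 differed by 0.00 at ZT2 and 0.30 at ZT14, and Ireb2 by -0.09 and 0.25. Their part in the Tfrc values was not tested. The median of the list was -0.05 at ZT2 and 0.00 at ZT14.

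Epor encodes the erythropoietin receptor. Its brighter probe (mm9 chr9:21763422-21763481, minus strand) gave 333.6 in vancomycin kidney and 360.1 in saline kidney at ZT2, and 544.6 in vancomycin kidney and 650.7 in saline kidney at ZT14. The differences were 0.05 at ZT2 and -0.20 at ZT14, the smallest of the 5 genes at ZT2. A second probe of Epor (mm9 chr9:21766036-21766180, minus strand), at 2.595 to 13.54, was not well above background on any array.

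Epo had 2 probes and neither was well above background on any array. One (mm9 chr5:137925734-137925793, minus strand) gave 2.719 in vancomycin kidney and 2.653 in saline kidney at ZT2, and 4.14 in vancomycin kidney and 2.86 in saline kidney at ZT14. The other (mm9 chr5:137926263-137926322, minus strand) gave 4.134 in vancomycin kidney and 4.312 in saline kidney at ZT2, and 3.261 in vancomycin kidney and 2.872 in saline kidney at ZT14. The lowest signal well above background was 11 and 10.5 on these ZT2 arrays, and 13.5 and 11.3 on the ZT14 arrays. A difference in Epo was therefore not detectable at this signal, which does not show that it was absent. The second probe is shown as what was measured.
Epo probe: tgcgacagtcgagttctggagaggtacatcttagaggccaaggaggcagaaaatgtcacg

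Genes of the erythropoietin pathway and of oxygen sensing were also measured. They do not stand in for Epo, and any tie of their values to Epo was not tested. Of 15 measured erythropoietin signalling genes 1 was lower by 2-fold at ZT2 and 0 were past it at ZT14, with medians of -0.04 and -0.17. Socs2, a feedback inhibitor that STAT5 induces, differed by -1.13 at ZT2 and 0.51 at ZT14. Its relative Socs3 differed by -0.56 and 0.03, and the shared cytokine receptor gene Csf2rb by -0.47 and -0.02. Cish, another STAT5 target, differed by 0.07 and 0.55, and the kinase gene Pim1 by 0.44 and -0.49.

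All 21 genes of the oxygen-sensing list were measured. At ZT2, 1 was higher and 2 were lower by 2-fold, and at ZT14, 1 was higher and 0 were lower, with medians of 0.10 and 0.05. Pdk1, a pyruvate dehydrogenase kinase gene, differed by 1.35 at ZT2 and -0.68 at ZT14. The vasodilator gene Adm differed by -1.33 and -0.44, and Ankrd37 by -1.13 and 0.27. Car9, a carbonic anhydrase gene that hypoxia induces, differed by 0.72 and 1.15. Epas1, which encodes the factor HIF-2 alpha that acts on Epo, differed by 0.04 and -0.62.

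The same genes were compared between ZT14 and ZT2 within each treatment. In saline kidneys 1 of the 5 members was at least 2-fold higher at ZT14 and 0 were lower, against 8.40% higher and 3.47% lower of 24059 genes. That was Klf1, at 3.43 (log2, 10.8-fold higher), and 1.59 with normexp background correction. The saline ZT2 signal behind this size, 15.16, is close to the dimmest well above background on that array. Hba-a1 differed by 0.04, Alas2 by -0.40, Tfrc by -0.93 and Epor by 0.55. In vancomycin kidneys 3 of the 5 were higher and 0 lower, against 9.44% higher and 3.26% lower of 23322 genes. These were Hba-a1 at 2.43 (5.39-fold higher), Alas2 at 2.25 and Tfrc at 1.02, while Klf1 differed by 0.78 and Epor by 0.30. Some of these lie at the edge of the 2-fold size: Alas2 was at 0.89 with normexp background correction, and Tfrc was at 0.905 with median centring, 0.99 with quantile normalization, 0.991 in the authors' deposited table and 0.987 with its other probe. Klf1 passed it in vancomycin kidneys with the mean over probes (1.078) and with its other probe (1.378). Tfrc in saline kidneys was at -1.036 with median centring. The time comparisons share their arrays with the treatment comparisons and are other readings of the same 4 values. Of all genes past 2-fold, 70.7% in saline kidneys and 74.3% in vancomycin kidneys were higher at ZT14, and 60.4% and 62.8% when arrays were centred on the median.

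Over both times limma fitted treatment and time as additive terms, with 1 residual degree of freedom, and 0% of 24638 genes passed an adjusted p under 0.05 for either term. At an unadjusted p under 0.05 there were 2107 genes for treatment and 6710 for time. For vancomycin minus saline, Hba-a1 was at -0.89 ± 0.72 (SE, limma adjusted p = 0.79) and Alas2 at -1.13 ± 0.79 (limma adjusted p = 0.76). Klf1 was at 1.45 ± 0.80 (limma adjusted p = 0.705), Tfrc at 0.00 ± 0.59 (limma adjusted p = 0.999) and Epor at -0.08 ± 0.15 (limma adjusted p = 0.928). None passed. For ZT14 minus ZT2, Klf1 was at 2.11 ± 0.80 (limma adjusted p = 0.229) and Epor at 0.42 ± 0.15 (limma adjusted p = 0.219), and the other 3 had adjusted p between 0.354 and 0.965 by limma.

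Markers of other cells were set beside the globin genes. Of the platelet list, the other blood element without a nucleus, 9 of 12 genes were measured, and 7 of 7 compared at ZT2 were lower, the median being -0.97, with 3 past 2-fold. At ZT14, 6 of 8 were lower and the median was -0.79. The summed signal, in units of each array's 75th percentile, was 0.568 in vancomycin kidney and 1.06 in saline kidney at ZT2, and 0.67 in vancomycin kidney and 0.967 in saline kidney at ZT14. Pf4, a platelet chemokine gene, differed by -1.20 at ZT2 and -1.12 at ZT14, and Gp1ba, Gp5 and Tubb1 were not well above background on any array. The summed globin signal was 15.1 in vancomycin kidney and 63.5 in saline kidney at ZT2, and 81.8 in vancomycin kidney and 66.8 in saline kidney at ZT14. This sum is mostly alpha globin and counts Hba-a1 and Hba-a2 each, though their probes cannot be told apart. Platelet medians were thus below 0 at each time, and the globin median only at ZT2. This difference between lists was not tested.

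Neutrophil markers, 9 of 12 measured, differed in the median by -0.15 at ZT2 and by -0.02 at ZT14. Lymphocyte markers, 10 of 11 measured, by -0.78 and -0.94. Of 12 markers of interstitial fibroblasts and pericytes, the cell group that makes erythropoietin, 11 were measured. At ZT2, 10 of 11 were lower, with a median of -0.51, and at ZT14, 8 of 11 were lower, with a median of -0.10. Their summed signal was 42.1 in vancomycin kidney and 67.2 in saline kidney at ZT2, and 43.1 in vancomycin kidney and 52.7 in saline kidney at ZT14. Bright genes weigh most in this sum, and the brightest in vancomycin kidney at ZT2 was Nt5e. The collagen genes Col1a1 and Col1a2 differed by -1.83 and -1.23 at ZT2 and were the 2 past 2-fold there. Pdgfra differed by -0.10 and Nt5e by -0.21 at ZT2, nearer to level, while Dcn differed by -0.89 and Des by -0.88.

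Markers of 2 tissues next to the kidney differed as well. Adrenal markers, 10 of 12 measured, were higher at ZT2 in 10 of 10, with a median of 2.81, and their summed signal was 7.32 in vancomycin kidney and 1.24 in saline kidney. At ZT14, 8 of 10 were higher, 6 of them by 2-fold, with a median of 1.04 and sums of 1.81 in vancomycin kidney and 1.27 in saline kidney. Fat markers, 10 of 10 measured, differed both ways at ZT2. By 2-fold, 5 were lower, such as Adipoq at -1.64, and 2 were higher, namely the brown fat genes Ucp1, at least 4.01 higher, and Cidea at 1.58. Their median was -1.0 and their summed signal 20.7 in vancomycin kidney and 43.0 in saline kidney. At ZT14 the median of the 7 compared was 0.14, and the sum was 11 in vancomycin kidney and 9.46 in saline kidney. The part of any of these cells in the globin, Alas2 or Klf1 values was not tested.

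**Figure D4:**
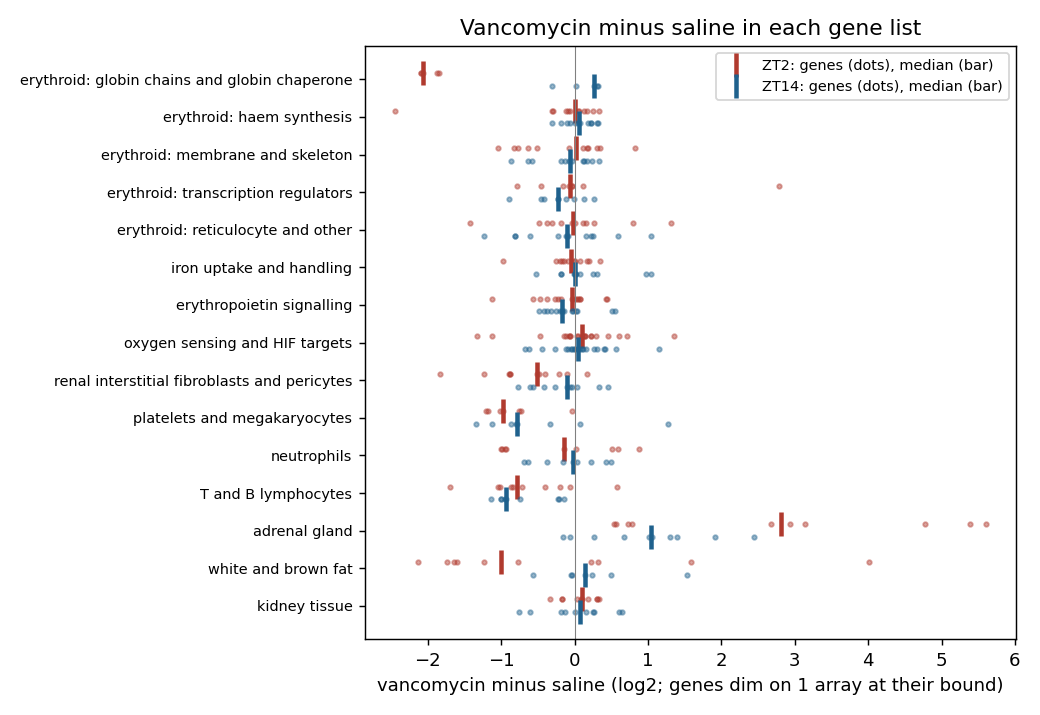
Vancomycin minus saline (log2) in each gene list, with dots for genes, bars for list medians, and ZT2 in red above ZT14 in blue. Genes dim on 1 of the 2 arrays are drawn at their bound. Globin genes centre on -2.06 at ZT2 and on 0.27 at ZT14, platelet markers -0.97 and -0.79, and kidney markers 0.10 and 0.08.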

How the data were processed

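Kidney RNA of 4 samples was labelled with Cy3 and hybridized to 1-colour arrays, and images were read by Agilent Feature Extraction. Its version is 10.7.1.1 in the file headers and 9.5.1.1 per the submitters' processing notes. The deposited processed signal of each spot is an intensity with background subtracted, per the file headers. The authors also deposited an intensity table by probe whose columns share a median of 35.2. It was used as an alternative. Arrays have no read depth, and their number limits the precision.

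From the log2 of the processed signal the 75th percentile of its array was subtracted, after which outlier spots were dropped and spots averaged. Probes with 50% or more spots well above background on some array were kept, and the brightest probe stands for a gene. A signal dim on 1 of 2 arrays was raised to at least the lowest signal well above background there, which gives a bound ("at least"). The additive fit used limma 3.58.1 in R 4.3.3 with Benjamini-Hochberg adjustment over all genes, and was tested on simulated data. The members and lists were chosen with earlier results of these data known. Genes of the erythroid, iron, erythropoietin and oxygen lists were named if past 2-fold at both times or among the 3 largest differences at a time, apart from those given for a count. Some genes of these lists are counted but their values are not reported here. For the cell marker lists, examples were chosen after their values were seen. Coordinates of probes come from the array files (mm9), and promoters are of GRCm38.p6, used for letters only. Alternatives were normexp background correction, quantile normalization, median centring, the authors' table, a pseudocount of 16, other filters on dim probes, the mean over probes, the dimmer probe, and for the fit no second term or an intensity trend with a robust prior.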

Additional observations from a re-analysis of the deposited data

Results flagged for a closer look

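For 4 of the 5 measured genes the difference between vancomycin and saline had opposite signs at ZT2 and at ZT14. Of all 22250 genes with a difference at both times 42.7% had opposite signs, so a change of sign is common and the count says nothing particular of these genes. With 1 array a group the difference between the times was not tested, and the gap for Epor is small. Hba-a1 differed by -2.09 at ZT2 and 0.31 at ZT14 (log2, vancomycin minus saline). Alas2 differed by -2.45 at ZT2 and 0.19 at ZT14. Tfrc differed by -0.97 at ZT2 and 0.98 at ZT14. Epor differed by 0.05 at ZT2 and -0.20 at ZT14.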

How the results depend on the processing

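The 5 measured genes kept the sign of each difference between arrays under all alternatives, except Hba-a1 between times in saline, at 0.04 and as low as -0.082. Sizes of dim genes moved: Alas2 at ZT2 ranged from -2.454 to -1.083, Klf1 at ZT2 from 1.189 to 2.817, and Hba-a1 at ZT2 only from -2.101 to -1.968 (log2). The 1.189 of Klf1 is a lower bound from its other probe, and the lowest value that is not a bound was 1.21, with normexp. Genes past 2-fold numbered 1344 at ZT2, 1067 at ZT14, 2858 between times in saline and 2962 in vancomycin. In this order of comparisons normexp gave 463, 364, 1101 and 1191, a pseudocount of 16 gave 750, 629, 1770 and 1854, and no filter on dim probes gave 4457, 3164, 6095 and 6475. At ZT14, probes above background on all 4 arrays gave 689, and the same filter on genes with the main scaling, chosen after seeing the data, gave 687. For time, limma called 0 genes, against 3008 with normexp, 1767 with the pseudocount, 1636 with probes above background on all 4 arrays, 3396 with a trend and a robust prior, and 1332 without the treatment term. Over these settings the lowest limma adjusted p of a member was 0.0742 for time, in Klf1, and 0.492 for treatment, also in Klf1, so no member was called. The cause of these shifts was not tested. The limma fit for treatment already compares vancomycin with saline within each time and slide, and leaving out an array leaves no residual degree of freedom. Signal over background limits Epo, Gata1 and Ahsp.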
